A study of Homo sapiens with 32 samples.

Results

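Interferon-stimulated genes are the genes that cells switch on when interferon reaches them, and 53 of them were followed here by the rate at which their newly made RNA was lost. The list was given by symbol, by a rule that uses no measured value, although it was put together with earlier results of these data known. Rates in both cell lines were found for 35 of the 53 genes, out of 10829 genes with rates in both. OAS3 and PARP9 had rates in MDA-LM2 alone, and IFI6, IFITM1 and IFITM2 in MDA-MB-231 alone. No rate in either table was matched to the other 13, which were not analysed here: CMPK2, DHX58, HLA-B, HLA-C, IFI27, IFI44L, IRF7, ISG20, MX1, MX2, OAS1, RSAD2 and XAF1.

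MDA-LM2, a derivative of MDA-MB-231 selected in mice for metastasis to the lung, was set against its parent MDA-MB-231, a human line from a breast carcinoma. Both lines were grown in the same medium with no interferon named in the labels, given 4-thiouridine (a uridine analogue that marks newly made RNA) for 2 h and then chased with excess uridine. Labelled RNA was precipitated and sequenced at 0, 2, 4 and 7 h, with 4 libraries per line and time. For each line the deposited table gives every transcript a rate in 4 series, numbered 1_1, 1_2, 2_1 and 2_2 in the labels, and values by series are given below in that order. A positive rate means that the labelled RNA fell with time, and a rate at or below 0 means that no fall was recorded. A rate says nothing about how abundant the RNA was. The sources used here leave the log base and scaling of the rates unstated, and no half-life was derived. Read depth is unknown, so no interval that rests on depth is given. Each rate is an average over a culture, so a change in every cell and a change in a share of the cells cannot be told apart. Whether the series were separate cultures is not stated in the sources, and the p-values cover only how far these series differ from each other.

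Type I interferon binds a receptor at the cell surface, and its kinases phosphorylate STAT proteins, STAT2 among them. STAT2 joins IRF9 in a complex that enters the nucleus and binds interferon-stimulated response elements in the promoters of the genes listed here. The products sense viral nucleic acid, block viral entry, translation and budding, or load peptides for T cells. Carcinoma lines can express part of this set without added interferon.

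The core of this response element was common among the members' promoters. It was searched as GAAANNGAAA on both strands, overlapping matches included, from 250 bases before to 50 bases after each gene's start in the RefSeq promoters of GRCh38.p14. It was found in 25 of the 44 members with a promoter in that table (56.8%), in 3.57% of all 35116 promoters, and in 2.93% of the 12203 promoters of genes measured in both lines. For each member the first promoter listed was used, whereas these background shares count every promoter. Some genes have more than 1, since 12203 promoters belong to at most 10829 genes. Among members with rates in both lines 18 of 30 held it (60.0%), and among members with no rate 4 of 10 (40.0%). A match is a description of the letters and not a site shown to be used. Windows of 26 bases around 1 match are shown for 6 members within range of the main body of rates, from fast to slow decay, and then for ISG15 and IFIH1, which had extreme rates in some MDA-MB-231 series. Each is read on the strand given, with the match in capitals.

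IFIT5, chr10:89414556-89414581, minus strand: agcgctcaGAAACTGAAActtaagaa
IFIT1, chr10:89392499-89392524, minus strand: cgaaagggGAAAGTGAAActaaagct
PARP14, chr3:122680802-122680827, plus strand: caggaaacGAAAGCGAAAgagtcaaa
B2M, chr15:44711371-44711396, plus strand: aagaaaagGAAACTGAAAacgggaaa
TAP1, chr6:32853815-32853840, plus strand: atttagggGAAAGCGAAAtcgaaagc
BST2, chr19:17405743-17405768, minus strand: ctttctggGAAACTGAAActgaaaac
ISG15, chr1:1013382-1013407, plus strand: gggaaaggGAAACCGAAActgaagcc
IFIH1, chr2:162318688-162318713, minus strand: agagaatcGAAACAGAAAccaaagtc

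The same letters, GAAACTGAAA, stand in the windows of IFIT5, B2M and BST2, whose RNAs had unlike rates. IFIT5 averaged 0.349 ± 0.0251 in MDA-LM2 against 0.332 ± 0.0699 in MDA-MB-231 (SD, n = 4 series each). BST2 averaged 0.0127 ± 0.0555 in MDA-LM2 against -0.159 ± 0.0821 in MDA-MB-231. Among members with all rates within 1 of 0, those with the core had a median of 0.145 in MDA-LM2 against 0.111 in MDA-MB-231 (12 genes), and those without it 0.22 in MDA-LM2 against 0.217 in MDA-MB-231 (6 genes). The range with the core ran from 0.00277 to 0.349 in MDA-LM2 and from -0.159 to 0.332 in MDA-MB-231, and all 6 members without it had means inside that range in both lines. STAT2, IRF1, IRF9, RIGI and ADAR were among the members whose promoter window, the first listed, did not hold these letters. Any further promoters of these genes were not counted.

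With extreme rates counted, the 35 members spanned slow and fast decay, around a median slightly above that of all genes in each line. The median over members was 0.188 ± 0.0205 in MDA-LM2 against 0.234 ± 0.0363 in MDA-MB-231 (mean and SD of the series medians, n = 4 each). Over all genes it was 0.165 ± 0.0106 in MDA-LM2 against 0.189 ± 0.0152 in MDA-MB-231. The middle of the distribution was wide, since the gene means between the lower and upper quartile ran from 0.0836 to 0.326 in MDA-LM2 and from 0.124 to 1.6 in MDA-MB-231. Subtracting MDA-MB-231 from MDA-LM2 gave a median difference of -0.0411 over members and -0.0539 over all genes.

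Rates in the tables fall into a main body near 0 and separate groups of extreme values, such as 9.57 for ISG15 and -7.89 for OASL, whose origin the sources used here do not describe. All 8 rates lay within 1 of 0 for 20 of the 35 members (57.1%) and for 7224 genes (66.7%). The other 15 members had a rate beyond 1 in some series of MDA-MB-231, and 6 of these had one in MDA-LM2 too. Of the member rates, 6.43% ± 3.6 lay beyond 1 in MDA-LM2 against 25.0% ± 4.29 in MDA-MB-231 (SD over 4 series). Of the rates of all genes, 3.96% ± 0.793 did so in MDA-LM2 against 17.5% ± 0.878 in MDA-MB-231. Differences of members with extreme rates rest on those values and are given with every series beside them. For the 20 members within 1 of 0 the median was 0.181 ± 0.0166 in MDA-LM2 against 0.14 ± 0.0481 in MDA-MB-231, and for the 7224 genes within 1 of 0 it was 0.151 ± 0.0115 in MDA-LM2 against 0.159 ± 0.0155 in MDA-MB-231. Within range the member median was thus above that of genes in MDA-LM2 and below it in MDA-MB-231.

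**Figure D1:**
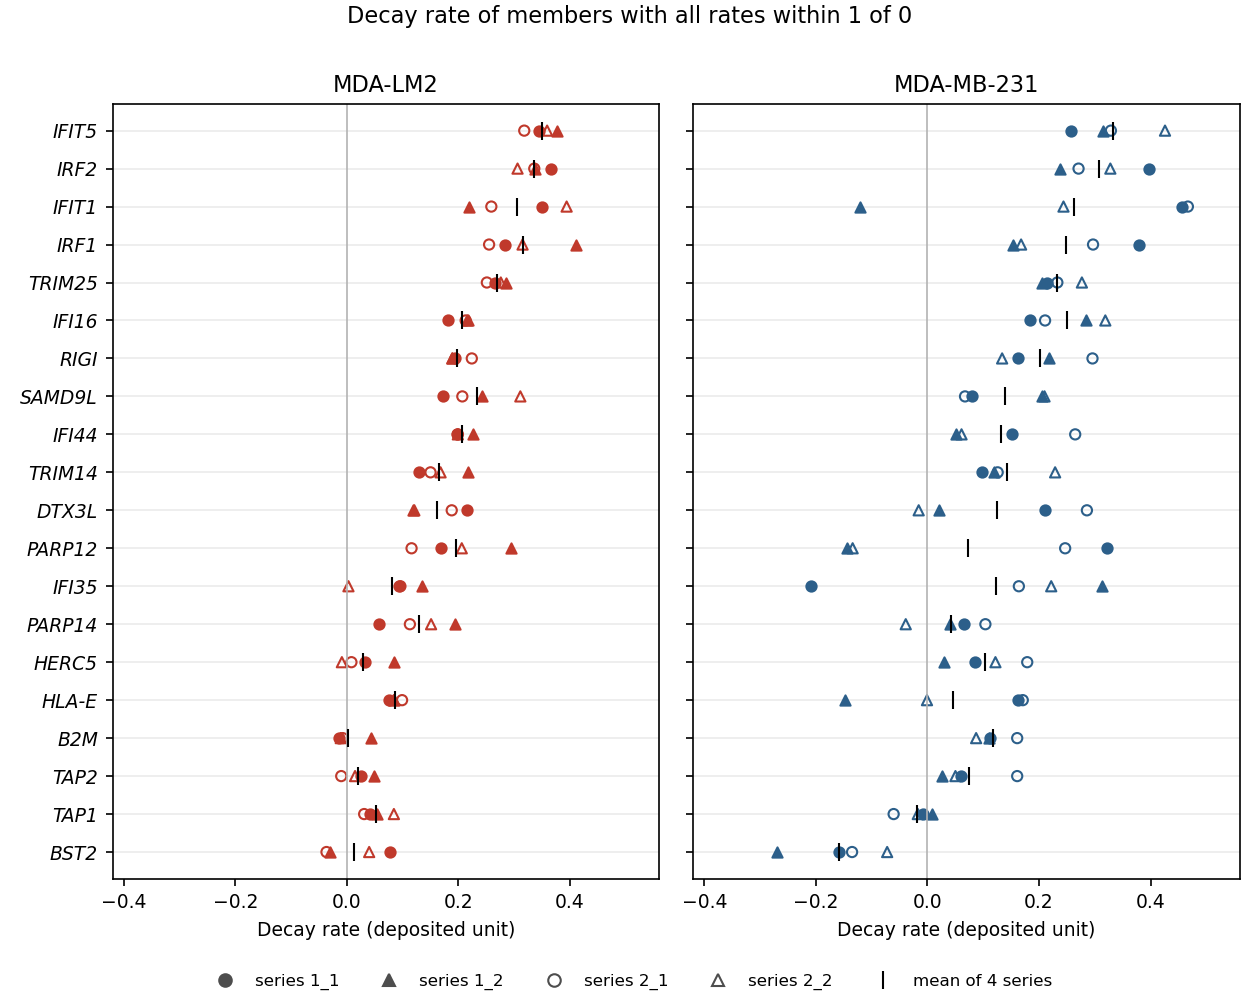
Decay rate in the deposited unit of the 20 members whose 8 rates all lie within 1 of 0, in MDA-LM2 (left) and MDA-MB-231 (right), ordered by the mean over both lines. Each point is 1 of 4 series, circles for second number 1 and triangles for second number 2, filled for first number 1 and open for first number 2, and the bar is the mean; IFIT5 and IRF2 stand at the fast end and BST2, TAP1, TAP2 and B2M near 0.

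The relay from receptor to promoter held 1 of the 2 members that passed the test between the lines. Differences were tested with limma on all 10829 genes (the median over a gene's transcripts, 4 against 4 series, two-sided, Benjamini-Hochberg adjusted p under 0.05). That test called 2 members slower and 0 faster in MDA-LM2, where 6.71% of all genes were called slower and 2.0% faster. STAT2, a subunit of the interferon-activated complex, had rates of 0.119, 0.133, 0.109 and 0.14 in MDA-LM2 and 1.29, 1.17, 1.41 and 0.638 in MDA-MB-231. Every MDA-LM2 rate lay below every MDA-MB-231 rate, and the difference was -1.01 ± 0.163 (SE, adjusted p = 0.0118). The call was lost when the correlation of series with the same second number was estimated (adjusted p = 0.0567) and from series with second number 2 alone (adjusted p = 0.173). The 2 STAT2 transcripts had unlike patterns. One had 0.108, 0.114, 0.0749 and -0.00669 in MDA-LM2 against 2.5, 2.29, 2.7 and -0.052 in MDA-MB-231. The other had 0.13, 0.151, 0.144 and 0.286 in MDA-LM2 against 0.0866, 0.0629, 0.131 and 1.33 in MDA-MB-231. Neither passed on its own (adjusted p = 0.118 and 0.611), and reads shared between transcripts of 1 gene make their separate rates uncertain.

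IRF9, the DNA-binding subunit of the same complex, had 0.272, 0.587, 0.198 and 0.54 in MDA-LM2 and 9.61, 0.293, 9.58 and 0.464 in MDA-MB-231. The MDA-MB-231 rates were extreme in series 1_1 and 2_1 alone, and the groups overlapped (adjusted p = 0.279). The interferon regulatory factors IRF1, an activator, and IRF2, which often represses the same promoters, were among the fastest members within range in both lines. IRF1 had 0.283, 0.41, 0.255 and 0.315 in MDA-LM2 and 0.38, 0.153, 0.297 and 0.168 in MDA-MB-231. IRF2 had 0.366, 0.337, 0.336 and 0.306 in MDA-LM2 and 0.397, 0.237, 0.271 and 0.328 in MDA-MB-231. Both overlapped between the lines, with differences of 0.0663 (95% interval -0.0785 to 0.211) for IRF1 and 0.0279 (-0.0644 to 0.12) for IRF2.

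Of 20 receptor and relay genes that are not members, 16 had rates in both lines, and 2 decayed more slowly and 1 faster in MDA-LM2, beside 6.71% and 2.0% of all genes. With correlated series the adjusted p was 0.000325 for PIAS4, 0.0508 for PIAS2 and 0.2 for SOCS3, so the calls of PIAS2 and SOCS3 were lost. The median difference of the 16 was -0.0152, beside -0.0539 over all genes. The STAT-binding SUMO ligases PIAS4 (0.283, 0.351, 0.372 and 0.406 in MDA-LM2 against 9.64, 9.3, 9.67 and 9.65 in MDA-MB-231, adjusted p = 5.89e-05) and PIAS2 (0.121, 0.083, 0.304 and 0.078 in MDA-LM2 against 1.11, 0.997, 1.48 and 1.6 in MDA-MB-231, adjusted p = 0.00442) were lower in every MDA-LM2 series than in any MDA-MB-231 series. Both rest on MDA-MB-231 rates of 0.997 or more. The PIAS2 rates are medians over 2 transcripts, whose separate rates were not examined. SOCS3, a feedback inhibitor of cytokine receptors, stayed within range and was faster in MDA-LM2, with 0.403, 0.614, 0.492 and 0.553 in MDA-LM2 against 0.173, 0.2, 0.267 and 0.375 in MDA-MB-231 (difference 0.262 ± 0.0627, adjusted p = 0.0485). Leaving out any 1 series except MDA-MB-231 2_2 ended the SOCS3 call, with the adjusted p over those 7 fits up to 0.128. The interferon gamma receptor chains IFNGR1 (0.18, 0.21, 0.186 and 0.164 in MDA-LM2 against 0.433, 0.243, 0.363 and 0.363 in MDA-MB-231, adjusted p = 0.0534) and IFNGR2 (0.0701, 0.0806, 0.0836 and 0.0811 in MDA-LM2 against 0.471, 0.0142, 0.203 and 0.0339 in MDA-MB-231, adjusted p = 0.497) did not pass.

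No sensor among the members passed the test. RIGI, the RNA helicase that detects viral RNA ends, had means close together (0.198 ± 0.0171 in MDA-LM2 against 0.202 ± 0.0715 in MDA-MB-231), with a 95% interval of the difference from -0.0904 to 0.0828. Its relative IFIH1, which detects long double-stranded RNA, had -0.0447, 0.013, -0.0368 and -0.0317 in MDA-LM2 and 9.18, 0.118, 9.25 and 0.151 in MDA-MB-231. All 4 MDA-LM2 rates lay below the MDA-MB-231 rates, by a mean difference of -9.25 between series with second number 1 and of -0.144 between those with second number 2 (adjusted p = 0.271 over all series). By its mean IFIH1 stood at percentile 4.29 of all genes in MDA-LM2, among the slowest, and at percentile 90.5 in MDA-MB-231. The MDA-MB-231 mean of 4.67 ± 5.24 rests on the extreme rates of series 1_1 and 2_1. In series 1_2 and 2_2 the IFIH1 rates lay below the medians of all genes there, 0.176 and 0.187.

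IFI16, a nuclear DNA sensor, averaged 0.207 ± 0.0167 in MDA-LM2 against 0.25 ± 0.063 in MDA-MB-231 (adjusted p = 0.427). Its 2 transcripts leaned in opposite directions, at 0.154 ± 0.0308 in MDA-LM2 against 0.312 ± 0.143 in MDA-MB-231 for one and 0.26 ± 0.00476 in MDA-LM2 against 0.187 ± 0.0341 in MDA-MB-231 for the other, and neither passed (adjusted p = 0.213 and 0.0968). TRIM25, the ubiquitin ligase linked to RIGI signalling, was among the 5 fastest members within range, with 0.266, 0.285, 0.251 and 0.276 in MDA-LM2 and 0.215, 0.205, 0.233 and 0.277 in MDA-MB-231. ADAR, which edits adenosine to inosine in double-stranded RNA and so shields the cell's own RNA from the sensors, had 0.233, 0.273, 0.192 and 0.23 in MDA-LM2 and 1.62, 0.105, 1.58 and 0.0795 in MDA-MB-231. Its MDA-MB-231 rates were again high in series 1_1 and 2_1 and low in the other 2, and the lines overlapped. These extremes came from 1 of its 2 transcripts listed for both lines (3.21, 0.0279, 3.04 and 0.0786 in MDA-MB-231), while the other averaged 0.103 ± 0.0199 in MDA-LM2 against 0.0997 ± 0.0661 in MDA-MB-231. A further ADAR transcript, listed for MDA-LM2 alone, had 0.404, -6.32, 1.9 and 0.0886.

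Among 24 other genes of the path from nucleic acid to interferon induction, 15 had rates in both lines, and 0 were slower and 1 was faster in MDA-LM2, beside 6.71% and 2.0% of all genes. The faster one was ZCCHC3, whose call was lost with correlated series (adjusted p = 0.2). The median difference of the 15 was 0.00911, beside -0.0539 over all genes. ZCCHC3, a cofactor of nucleic acid sensors, had 0.318, 0.325, 0.324 and 0.556 in MDA-LM2 and 0.0955, 0.103, 0.0393 and -0.158 in MDA-MB-231 (difference 0.361 ± 0.0793, adjusted p = 0.0367). Leaving out any 1 series except MDA-MB-231 1_2 or 2_2 ended this call, with an adjusted p up to 0.0838. AZI2, an adaptor of the kinase TBK1, had 0.19, 0.148, 0.173 and 0.123 in MDA-LM2 against 0.394, 0.144, 0.475 and 0.14 in MDA-MB-231. The double-stranded RNA receptor TLR3 had 0.086, 0.199, 0.156 and 0.134 in MDA-LM2 against 0.154, -0.209, 0.335 and -0.126 in MDA-MB-231, and like AZI2 it did not pass.

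IFIT1, IFIT2 and IFIT5 bind viral RNA and hold back its translation, and the RNAs of IFIT5 and IFIT1 were among the fastest within range. IFIT5 had 0.344, 0.377, 0.318 and 0.359 in MDA-LM2 and 0.258, 0.315, 0.329 and 0.426 in MDA-MB-231, the highest mean over both lines of the 20 members within range. IFIT1 had 0.349, 0.219, 0.259 and 0.394 in MDA-LM2 and 0.456, -0.121, 0.467 and 0.244 in MDA-MB-231. IFIT2 had 0.39, 0.405, 0.492 and 0.34 in MDA-LM2 and 0.485, 0.354, 9.55 and 0.374 in MDA-MB-231, so that 1 series set its MDA-MB-231 mean. The lines overlapped for all 3, with differences of 0.0172 ± 0.0395 for IFIT5, 0.0436 ± 0.133 for IFIT1 and -2.28 ± 2.12 for IFIT2 (SE).

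IFIT3, whose protein stabilises IFIT1, held the lowest adjusted p of any member transcript, and the gene's median did not show it. As a gene it had 1.47, 0.268, 1.54 and -0.904 in MDA-LM2 and 0.637, 1.09, 0.5 and 0.111 in MDA-MB-231 (difference 0.00893, adjusted p = 0.995). One of its 2 transcripts had 0.208, 0.65, 0.292 and 0.475 in MDA-LM2 against 2.3, 2.12, 2.35 and 2.23 in MDA-MB-231. That transcript decayed more slowly in MDA-LM2 by limma on all 12966 transcripts (difference -1.84 ± 0.175, adjusted p = 0.000745). In the authors' deposited table its score rounds to 1.0, which gives an adjusted p of 0.00187. The second transcript had 2.74, -0.114, 2.78 and -2.28 in MDA-LM2 against -1.02, 0.058, -1.35 and -2.01 in MDA-MB-231, a spread that overlapped between the lines (difference 1.86 ± 1.2, adjusted p = 0.344). The 2 transcripts share most of their exons, how shared reads were divided is not given in the sources used here, and the split between them is therefore uncertain.

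The OAS enzymes make the oligoadenylates that activate RNase L. OAS2 had 0.102, 0.133, 0.0119 and 4.73 in MDA-LM2 and 4.87, 4.65, 4.71 and 4.61 in MDA-MB-231, low in 3 of the 4 MDA-LM2 series and high in all 4 MDA-MB-231 series (difference -3.46 ± 1.29, adjusted p = 0.143). Without MDA-LM2 series 2_2, which goes against the difference, the adjusted p was 0.0276. Without any other single series it was from 0.152 to 0.318. These medians join 1 transcript with extreme rates (0.00183, 0.269, -0.0647 and 9.37 in MDA-LM2, against 9.26, 9.31, 9.28 and 9.22 in MDA-MB-231) and 1 within range in both lines (0.203, -0.00244, 0.0885 and 0.0836 in MDA-LM2, against 0.477, -0.0217, 0.133 and -0.00303 in MDA-MB-231). OASL, a relative that lacks the enzyme activity, had 0.488, 2.11, 0.535 and 9.03 in MDA-LM2 and -7.89, 9.49, 1.16 and 1.15 in MDA-MB-231, the widest spread among members listed for both lines. OAS3, listed for MDA-LM2 alone, had 0.185, 0.112, 0.0693 and -0.00637.

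**Figure D2:**
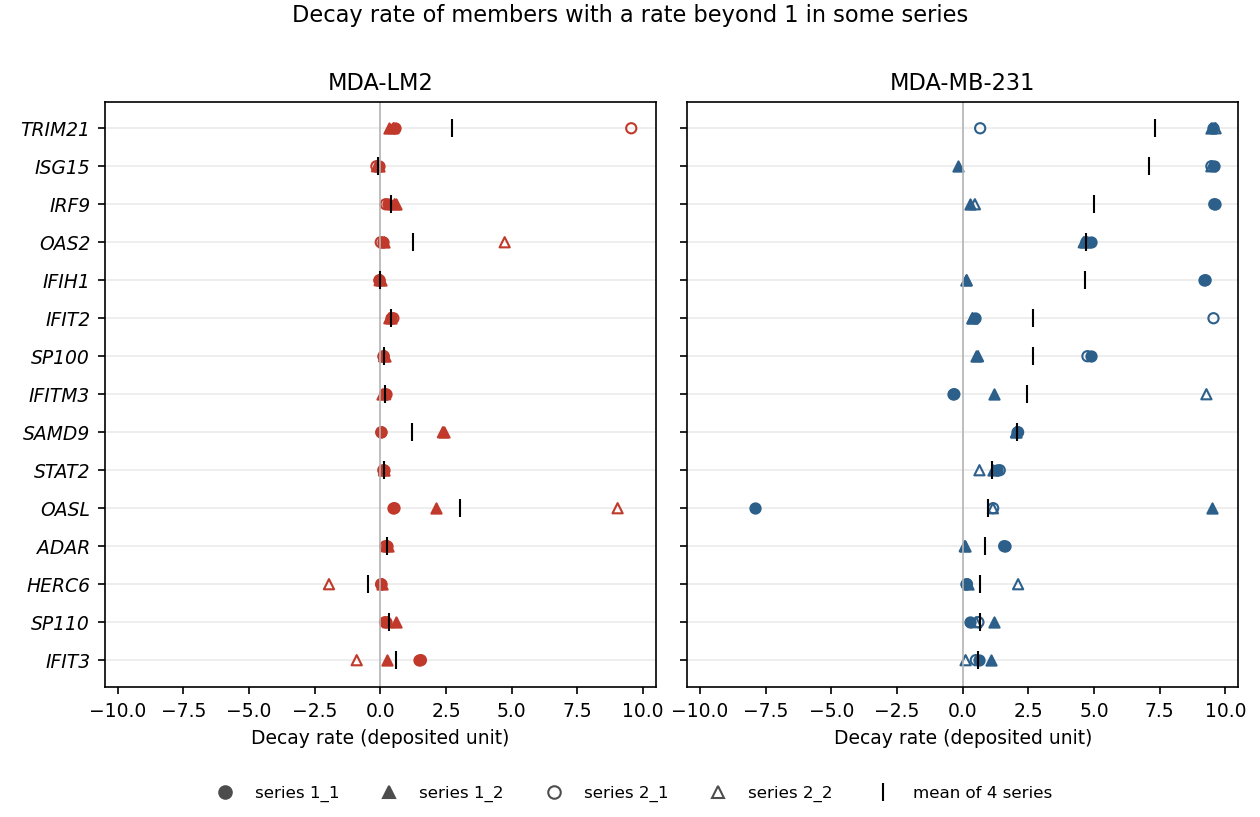
Decay rate in the deposited unit of the 15 members with a rate beyond 1 in some series, in MDA-LM2 (left) and MDA-MB-231 (right), ordered by the MDA-MB-231 mean. Symbols are as in the plot of members within range; in MDA-LM2 most points sit near 0 and single series of TRIM21, OASL and OAS2 stand apart, while in MDA-MB-231 several members have series both near 0 and near 9.

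ISG15, the ubiquitin-like protein that gives the modification ISGylation its name, had -0.0536, -0.0502, -0.154 and -0.129 in MDA-LM2 and 9.57, -0.19, 9.47 and 9.47 in MDA-MB-231. No fall was recorded in any MDA-LM2 series, whereas 3 of the 4 MDA-MB-231 series were extreme and series 1_2 lay below all the MDA-LM2 rates (difference -7.18 ± 2.38, adjusted p = 0.109). Without MDA-MB-231 series 1_2, which goes against the difference, the adjusted p was 0.000676. Without any other single series it was from 0.172 to 0.215. HERC5, the ligase that attaches ISG15 in human cells, averaged 0.029 ± 0.0407 in MDA-LM2 against 0.104 ± 0.0623 in MDA-MB-231 (adjusted p = 0.237). HERC6, which does this in mouse, had 0.022, 0.0597, 0.0267 and -1.96 in MDA-LM2 and 0.115, 0.188, 0.162 and 2.11 in MDA-MB-231. Its ranges did not overlap, and series 2_2 stood far from the other 3 in both lines, downward in MDA-LM2 and upward in MDA-MB-231 (adjusted p = 0.293).

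IFITM proteins block viral fusion at the membrane. IFITM3 had 0.23, 0.0466, 0.177 and 0.179 in MDA-LM2 and -0.373, 1.18, -0.318 and 9.28 in MDA-MB-231, below 0 in series 1_1 and 2_1 and above 1 in the other 2. IFITM1, listed for MDA-MB-231 alone, had 9.35, -8.26, 9.36 and -0.045, and IFITM2, listed likewise, had 9.29, 9.46, 9.41 and 9.35. IFITM1, IFITM2 and IFITM3 are related in sequence, so their rates may hold each other's reads. IFI6, an endoplasmic reticulum protein also listed for MDA-MB-231 alone, had 9.4, 9.55, 9.46 and 9.39.

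BST2, or tetherin, holds budding virus at the cell surface and had the lowest mean over both lines of the members within range, although B2M was lower in MDA-LM2 (0.00277 for B2M, 0.0127 for BST2). Its rates were 0.0777, -0.0302, -0.0365 and 0.04 in MDA-LM2 and -0.159, -0.269, -0.135 and -0.0721 in MDA-MB-231. Every MDA-LM2 rate lay above every MDA-MB-231 rate, by 0.172 ± 0.0465 on average, the largest difference within range (adjusted p = 0.0702, not past the threshold). Without MDA-MB-231 series 2_2, the one nearest the MDA-LM2 rates, the adjusted p was 0.0485. Without any other single series it was from 0.0702 to 0.174. The difference was 0.168 between series with second number 1 and 0.175 between those with second number 2. In MDA-MB-231 all 4 rates were negative, and BST2 stood at percentile 2.09 of all genes there and at 7.93 in MDA-LM2.

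Antigen presentation held the second member past the test and several of the slowest RNAs of the set. B2M, the invariant chain of class I molecules, had -0.0138, 0.0432, -0.00749 and -0.0109 in MDA-LM2 and 0.113, 0.111, 0.161 and 0.0874 in MDA-MB-231. It was slower in MDA-LM2 with no overlap, by a difference of -0.115 ± 0.0216 (adjusted p = 0.0207, and 0.11 with correlated series, which ended the call), and no decay was recorded in 3 of the 4 MDA-LM2 series. Leaving out MDA-LM2 series 1_1, 2_1 or 2_2 ended this call (adjusted p = 0.0746, 0.0733 and 0.0711). In the authors' deposited table the B2M score was 0.999, which gives an adjusted p of 0.0329. All its rates lay within 1 of 0, and the differences were -0.147 and -0.0829 between series with second numbers 1 and 2.

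TAP1 and TAP2 form the transporter that brings peptides to class I molecules. TAP1 had 0.0422, 0.0536, 0.031 and 0.0843 in MDA-LM2 and -0.00732, 0.00766, -0.0605 and -0.0172 in MDA-MB-231, higher in MDA-LM2 with no overlap (difference 0.0721 ± 0.0196, adjusted p = 0.0709). TAP2 had 0.0256, 0.0483, -0.0101 and 0.0147 in MDA-LM2 and 0.0611, 0.0257, 0.161 and 0.0503 in MDA-MB-231, and its ranges overlapped (difference -0.055 ± 0.0314, adjusted p = 0.286). HLA-E, a class I molecule read by natural killer cells, had 0.0754, 0.0848, 0.099 and 0.0841 in MDA-LM2 and 0.163, -0.148, 0.171 and -0.000708 in MDA-MB-231. Its MDA-LM2 rates were tight and its MDA-MB-231 rates split by second number, so the 95% interval of the difference ran from -0.128 to 0.207. HLA-E shares long stretches with other class I genes, and its rate is uncertain to that extent. Apart from B2M, BST2 and TAP1, each member within range overlapped between the lines.

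Among 58 other interferon-inducible genes, 41 had rates in both lines, and 2 were slower and 0 faster in MDA-LM2, beside 6.71% and 2.0% of all genes. With correlated series NLRC5 passed (adjusted p = 0.000325) and WARS1 did not (adjusted p = 0.212). The median difference of the 41 was -0.0826, beside -0.0539 over all genes. NLRC5, the activator of class I promoters, had 0.475, 0.29, 0.48 and 0.366 in MDA-LM2 against 9.25, 9.26, 9.16 and 9.13 in MDA-MB-231 (adjusted p = 5.91e-05). WARS1, the tryptophanyl-tRNA synthetase, had 0.077, 0.0767, 0.0493 and 0.0448 in MDA-LM2 against 1.41, 1.3, 0.446 and 0.941 in MDA-MB-231 (adjusted p = 0.0322). The WARS1 call ended when any 1 series except MDA-MB-231 2_1 was left out, with an adjusted p up to 0.094. Neither was within range in MDA-MB-231. The WARS1 rates are medians over 2 transcripts, whose separate rates were not examined. The secreted glycoprotein LGALS3BP (0.113, 0.0325, -0.0038 and 0.000262 in MDA-LM2 against 0.587, 0.0948, 0.317 and 0.00213 in MDA-MB-231), the chemokine CCL5 (0.194, 0.373, 0.269 and 0.272 in MDA-LM2 against 0.205, 0.0211, 0.0233 and 0.122 in MDA-MB-231) and TDRD7 (0.237, 0.121, 0.287 and 0.146 in MDA-LM2 against 0.511, 0.261, 0.486 and 0.257 in MDA-MB-231) had the largest differences within range and did not pass (adjusted p = 0.288, 0.0886 and 0.182).

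PARP12 and PARP14 are ADP-ribosyltransferases, and DTX3L is the ubiquitin ligase that pairs with PARP9. PARP12 had 0.168, 0.294, 0.116 and 0.206 in MDA-LM2 and 0.322, -0.144, 0.247 and -0.134 in MDA-MB-231. Its difference of 0.123 ± 0.12 was the second largest within range, yet it was -0.142 between series with second number 1 and 0.389 between those with second number 2. PARP14 had 0.0584, 0.193, 0.113 and 0.151 in MDA-LM2 and 0.0659, 0.0407, 0.104 and -0.0388 in MDA-MB-231 (difference 0.0861 ± 0.0398, adjusted p = 0.226). DTX3L averaged 0.161 ± 0.0486 in MDA-LM2 against 0.125 ± 0.146 in MDA-MB-231, with overlap. PARP9, listed for MDA-LM2 alone, had 0.122, 0.224, 0.0507 and 0.0861.

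SAMD9 and SAMD9L are neighbouring genes for cytoplasmic restriction factors. SAMD9 had 0.00265, 2.42, 0.0337 and 2.38 in MDA-LM2 and 2.08, 2.02, 2.11 and 2.03 in MDA-MB-231, so here the split by second number lay in MDA-LM2. A further SAMD9 transcript, listed for MDA-LM2 alone, had 2.58, -1.96, 2.81 and -1.31 and was thus high in the series where the first was near 0. SAMD9L stayed within range, with 0.172, 0.243, 0.207 and 0.311 in MDA-LM2 and 0.0792, 0.206, 0.0675 and 0.21 in MDA-MB-231 (difference 0.0927 ± 0.0471, adjusted p = 0.264). The nuclear body protein SP100 had 0.0945, 0.159, 0.124 and 0.14 in MDA-LM2 and 4.87, 0.493, 4.75 and 0.583 in MDA-MB-231, as the median of 4 transcripts. These medians did not overlap (difference -2.55 ± 1.15, adjusted p = 0.216). In MDA-MB-231 they join transcripts with extreme rates (9.62, 9.73, 9.73 and 0.348, and 9.42, 0.127, 9.36 and 9.34) and transcripts within range (-0.00757, 0.467, 0.0393 and 0.818, and 0.331, 0.518, 0.142 and 0.311). In MDA-LM2 all the SP100 transcripts were within range. Most of them overlapped between the lines, and none passed on its own (adjusted p from 0.108 to 0.531). SP110, a relative of SP100, had 0.213, 0.574, 0.175 and 0.284 in MDA-LM2 and 0.272, 1.18, 0.598 and 0.51 in MDA-MB-231 (adjusted p = 0.306).

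TRIM21, an intracellular antibody receptor, had 0.571, 0.33, 9.55 and 0.493 in MDA-LM2 and 9.53, 9.47, 0.665 and 9.63 in MDA-MB-231. Series 2_1 stood alone in both lines and in opposite directions, and the groups overlapped. TRIM14, an adaptor in the RIGI pathway, averaged 0.166 ± 0.0375 in MDA-LM2 against 0.143 ± 0.0582 in MDA-MB-231. IFI44 averaged 0.206 ± 0.0135 in MDA-LM2 against 0.132 ± 0.0994 in MDA-MB-231, and IFI35 0.0814 ± 0.0556 in MDA-LM2 against 0.123 ± 0.229 in MDA-MB-231. None of these 4 passed the test.

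Set against the 6.71% and 2.0% of all genes called, the 2 slower members (STAT2 and B2M) are no larger a share than the background. At an unadjusted p under 0.05 there were 6 members (17.1%, of which 2 faster), against 2839 genes (26.2%). When the correlation of series with the same second number was estimated (0.457), 0 members were slower and 0 faster, against 3.18% and 0.323% of all genes, with 3 members (8.57%) and 15.8% of all genes at an unadjusted p under 0.05. Under that fit on genes the adjusted p was 0.0567 for STAT2 and 0.11 for B2M. A separate limma fit on transcripts, with its own estimated correlation, gave an adjusted p of 0.00291 for the IFIT3 transcript. The same transcript fit gave 0.123 for B2M, and 0.361 and 0.779 for the STAT2 transcripts.

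By the median over transcripts, all 4 MDA-LM2 rates lay below all 4 MDA-MB-231 rates for 5 members, B2M, STAT2, SP100, IFIH1 and HERC6, where 17.6% of all genes did so. All 4 lay above for BST2 and TAP1, and 5.61% of all genes did so. By transcript, 2 of 44 member transcripts were slower and 0 faster, those of IFIT3 and B2M, both by limma, which called 6.04% and 1.9% of all transcripts, and by the authors' deposited score, which called 4.49% and 1.07%. These shares of members are near the background or under it. Means were lower in MDA-LM2 for 19 of 35 members (54.3%) and for 67.0% of all genes. Within range they were lower for 6 of 20 members (30.0%) and for 57.9% of genes, and the median difference within range was 0.0363 over members and -0.0169 over genes. The range limit is set on these same rates. It removed 9 members with rates beyond 1 in MDA-MB-231 alone and 0 with such rates in MDA-LM2 alone. The within-range values therefore depend on that limit and are not separate evidence of a direction.

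**Figure D3:**
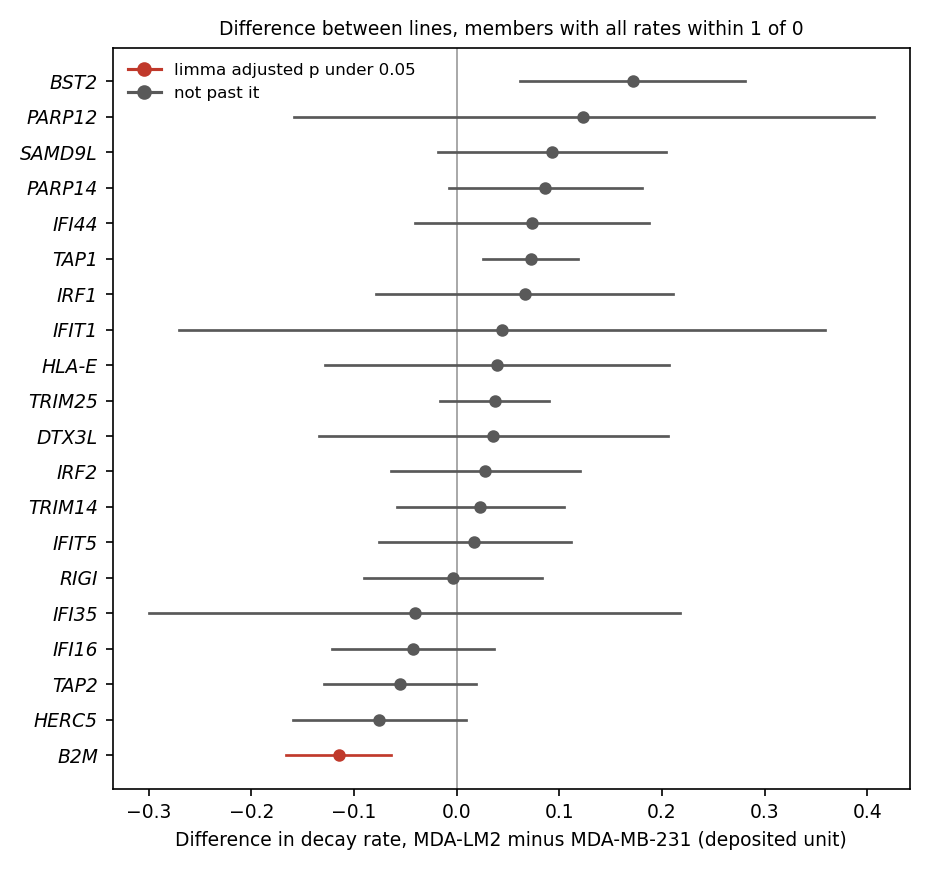
Difference in mean decay rate, MDA-LM2 minus MDA-MB-231, in the deposited unit for the 20 members within 1 of 0, with the 95% interval from limma (4 series per line). B2M, in red at the bottom, is the member past an adjusted p of 0.05; the intervals of BST2 and TAP1 exclude 0 but their adjusted p values of 0.0702 and 0.0709 do not pass.

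Much of the spread among MDA-MB-231 rates followed the second number in the series labels, whose meaning the sources used here do not give. Over the 35 members the rank correlation between 2 series averaged 0.864 with the same second number and 0.658 with another in MDA-LM2, and 0.782 and 0.375 in MDA-MB-231. All genes gave 0.815 and 0.617 in MDA-LM2 and 0.706 and 0.301 in MDA-MB-231. These are descriptions over genes, which are not independent replicates. In MDA-MB-231 the mean of PARP12 was 0.285 over series 1_1 and 2_1 and -0.139 over 1_2 and 2_2, that of HLA-E 0.167 and -0.0742, that of DTX3L 0.248 and 0.00273, and that of IFIT1 0.462 and 0.0616. IFI35 ran the other way, with -0.0224 and 0.267. The part of the second number in the differences between lines was looked at with the fit with correlated series and with fits within each number. A fit within 1 number compares 2 with 2 series that share it, so its spread leaves out that between numbers. From number 1 the fit called 9 members slower and 2 faster, beside 17.0% and 4.16% of all genes. From number 2 it called 2 members slower and 1 faster, beside 9.24% and 1.82% of all genes. Both called a larger share of all genes slower than the 6.71% of the fit on all series, so their counts of members are not firmer calls.

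**Figure D4:**
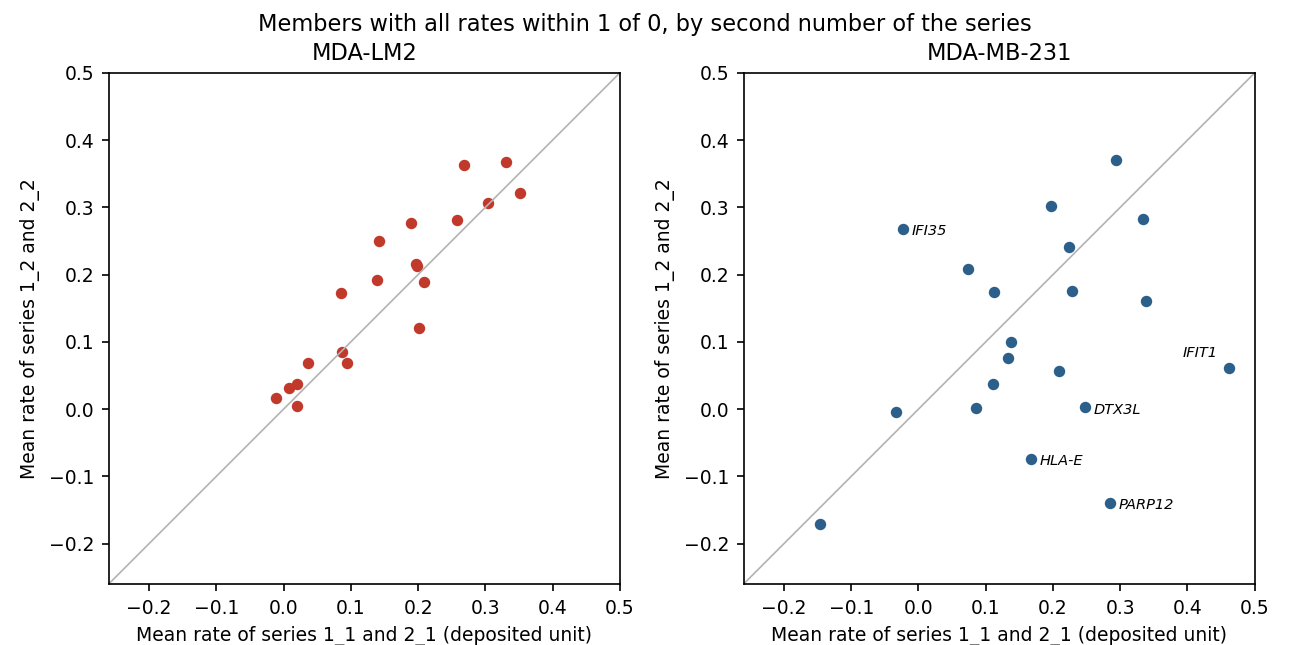
Mean decay rate over series 1_1 and 2_1 (horizontal) against that over series 1_2 and 2_2 (vertical), in the deposited unit, for the 20 members within 1 of 0, in MDA-LM2 (left) and MDA-MB-231 (right); the line marks equal values. MDA-LM2 members lie near the line, and in MDA-MB-231 the 5 labelled members lie farthest from it.

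Elements that speed decay were looked for in the 3′ ends. The AU-rich pentamer ATTTA stood on the sense strand of the 3′ UTR in 25 of 34 members (73.5%) and in 72.8% of 9621 genes, in GENCODE transcripts of GRCh38. For each gene only the longest 3′ UTR among its listed transcripts was searched, whereas the rates are medians over transcripts. IFIT5 and IRF1, both among the fastest members within range, held 4 each, but 94.3% of genes with a 3′ UTR of similar length (within 20%) held at least 1. IRF2, also among the fastest within range, held 1, and TAP2, among the slowest within range, held 6 (78.9% and 97.7% of genes of similar length held at least 1). B2M, slow in MDA-LM2, held 3 in a 3′ UTR of 553 bases, a length at which 59.4% of genes held 1. ISG15 and BST2 held none. Within range, members with the pentamer had a median rate of 0.196 in MDA-LM2 against 0.132 in MDA-MB-231 (15 genes), and the 4 without it 0.0552 in MDA-LM2 against 0.113 in MDA-MB-231. Over all genes within range the medians were 0.158 in MDA-LM2 against 0.168 in MDA-MB-231 with the pentamer, and 0.122 in MDA-LM2 against 0.141 in MDA-MB-231 without it. Over all 34 members, extreme rates included, the order of the MDA-MB-231 medians was turned round, with 0.206 in MDA-LM2 against 0.262 in MDA-MB-231 with the pentamer and 0.125 in MDA-LM2 against 0.64 in MDA-MB-231 without it.

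The longer nonamer TTATTTATT, a core of destabilising AU-rich elements, was found in 1 of 34 members (2.94%) and in 8.94% of genes. That member was TAP2, shown here as the single holder. The rate of the gene was low, at 0.0196 ± 0.0243 in MDA-LM2 against 0.0746 ± 0.0596 in MDA-MB-231, as the median of 2 transcripts. One averaged 0.024 ± 0.0389 in MDA-LM2 against 0.148 ± 0.114 in MDA-MB-231. The other averaged 0.0153 ± 0.046 in MDA-LM2 against 0.00134 ± 0.0521 in MDA-MB-231. Since only the longest 3′ UTR was searched, the nonamer was not tied to the rate of either transcript. The nonamer is in capitals, and it starts at base 3147 of a 3′ UTR of 3445 bases on chromosome 6, overlapping a further copy that starts at base 3151.

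TAP2 3′ UTR: aaaatataTTATTTATTtatttaaa

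No gene of 7 immune cell markers and none of 7 endothelial and fibroblast markers had a rate in both tables (0 of 7 each), and a rate gives no level by which such cells could be weighed further.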

How the data were processed

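The authors deposited 1 decay rate per RefSeq transcript and series for each line, and a differential score between the lines, with no transcript counts used here. The submitters' processing notes name TopHat, Cufflinks and the build hg18, with no versions or roles. The log base of the rates is not given in the sources used here. The deposited score equalled, within 0.001 for all 12966 transcripts, 1 minus the p of an unequal-variance test, signed positive where the MDA-MB-231 mean was the higher, so a positive score means slower decay in MDA-LM2. Its p values were Benjamini-Hochberg adjusted over all transcripts.

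Symbols came from a RefSeq gene table (12644 accessions) and GENCODE 29 (118), and 204 accessions without a symbol were kept as single features. The value of a gene was the median over its transcripts, and 9137 of 10829 genes had 1. limma 3.58.1 under R 4.3.3 (with its variance trend and without a block) compared 4 with 4 series over all genes. Its code was tested on simulated independent series modelled on genes within 1 of 0. That simulation held neither the groups of extreme rates nor correlated series, so it does not cover them. Tables were handled with pandas 2.3.3. No per-sample column was left unmapped (0).

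The members, gene lists and tests were chosen with earlier results of these data known. One gene of the receptor and relay list is not reported here, and that list's counts and median leave it out. Every series of values is printed for members past an adjusted p of 0.05 or with a rate beyond 1, for the 5 highest, the 5 lowest and the 5 of largest difference among members within 1 of 0, and from each pathway list for genes past 0.05 and the 3 of largest difference within 1 of 0. The searches of promoters and 3′ UTRs, the fits on series of 1 second number, the fit within range with correlated series, and the transcripts and further members set out by series were chosen after values had been seen. Promoter windows come from RefSeq (GRCh38.p14) and 3′ UTRs from GENCODE 29 (GRCh38), not from hg18. Alternatives were another value per gene, centring of each series, no variance trend, correlated series, a replicate block, the range of rates, transcripts, another threshold and leaving out each series. Same-numbered series of the lines did not deviate together (r from -0.0373 to -0.00799 over genes within 1 of 0), so the numbers were not treated as pairs.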

Additional observations from a re-analysis of the deposited data

Results flagged for a closer look

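In groups of 4 series, a rate was marked where its gap to the nearest other rate took up most of the group's range (Dixon's test at the 95% level), which chance does in about 1 of 20 groups. Of 75 groups of member rates, 12 were marked, 7 of them in MDA-LM2 and the other 5 in MDA-MB-231.

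Among members with rates beyond 1, TRIM21 was marked in both lines for series 2_1 (9.55 in MDA-LM2; 0.665 in MDA-MB-231, where the other 3 lay between 9.47 and 9.63). HERC6 was marked in both lines for series 2_2 (-1.96 in MDA-LM2 against 2.11 in MDA-MB-231). OAS2 was marked for MDA-LM2 series 2_2 (4.73). In MDA-MB-231, IFIT2 was marked for series 2_1 (9.55), IFITM3 for series 2_2 (9.28) and ISG15 for series 1_2 (-0.19).

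Within range, the marked rates were those of B2M in MDA-LM2 series 1_2 (0.0432), IFI16 in MDA-LM2 series 1_1 (0.182), IFI44 in MDA-LM2 series 1_2 (0.226) and RIGI in MDA-LM2 series 2_1 (0.224).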

How the results depend on the processing

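Read depth is unknown, and the 4 series of a line are fewer than 4 independent ones where they share a second number. Of 2 members slower in MDA-LM2, 0 remained with correlated series, 0 with a replicate block (adjusted p = 0.0837 for STAT2 and 0.119 for B2M), 1 with genes within 1 of 0 alone, where STAT2 is not tested, and 0 with both that range and correlated series. Series with second number 1 alone gave 9, among them STAT2 and B2M (1841 of all genes), and those with second number 2 alone gave 2, SP100 and TRIM21 (1001 of all genes), with STAT2 (adjusted p = 0.173) and B2M (0.217) not called. Fits on 1 second number leave out the spread between numbers. Leaving out each series gave 1 to 3. Of 0 members faster, centring each series gave 1 (BST2, adjusted p = 0.0439), an adjusted p limit of 0.1 gave 2 (BST2 and TAP1), second number 1 alone gave 2 (IFIT3 and IFITM3), second number 2 alone gave 1 (PARP12), and leaving out each series gave 0 to 1.

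STAT2 kept its call when each series was left out (adjusted p from 0.000414 to 0.0453), and SP100 joined the slower members when the mean over transcripts replaced the median. The median member rate was 0.14 in MDA-MB-231 within range. The median member difference was 0.0126 in series with second number 2 alone and 0.0363 within range, and from -0.0649 to -0.015 when each series was left out. The cause of these changes was not tested, beyond the fewer genes and series that some alternatives hold by construction.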
